A study of Mus musculus with 8 samples.

Results

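The comparison of NM-Brdi with NM-DMSO rests on 4 of the 8 RNA-sequencing libraries of a study in MC3T3-E1 cells, a mouse line of calvarial pre-osteoblasts. It was chosen by sample title alone and takes every gene of the count table. NM-Brdi replicates 1 and 2 were set against NM-DMSO replicates 1 and 2, and, because the NM-DMSO libraries differed much from each other, against each of these alone. The study's text gives cells either DMSO, the vehicle, or 10 µM of I-BRD9, a small molecule that blocks the bromodomain of BRD9. Its osteogenic medium held dexamethasone at 0.1 µM, ascorbic acid at 0.25 mM and a glycerol phosphate at 10 mM. No label states what the prefix NM stands for, which cultures were kept in that medium, or how long they were treated, so the groups are called by their titles. A second pair of groups, Brd and control, with 2 libraries each, entered the same fit and is used here to ask whether effects differed between the pairs. All groups are labelled as osteoblastic cells of the same line, from cranial bone, and no allele or transgene is named. Whether replicates are separate cultures is not stated. The osteoblast genes Runx2, Sp7 and Col1a1 were counted in all 4 libraries.

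BRD9 is a subunit of the non-canonical BAF complex, a chromatin remodeller that slides and evicts nucleosomes, and its bromodomain binds acetylated lysines. Osteoblasts arise when RUNX2 and then SP7 (osterix) turn on genes of the mineralising matrix, and Wnt ligands acting through β-catenin and TCF/LEF factors promote this course. Mature osteoblasts lay down collagen I, carry alkaline phosphatase, which hydrolyses pyrophosphate outside the cell, and control osteoclasts through secreted factors such as osteoprotegerin and M-CSF.

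Bone matrix and mineralisation genes were lower in NM-Brdi, and the natriuretic peptide clearance receptor Npr3 was much higher. Levels are in CPM after TMM scaling, which corrects the counts for depth but not for gene length. A gene is said to have risen or fallen, or to be called, where edgeR's quasi-likelihood test gave a Benjamini-Hochberg adjusted p under 0.05 over the 17038 genes tested. With this rule 318 genes (1.87%) were called. An unadjusted p under 0.05 was seen in 3684 of the 17038, which is the background for such counts in the lists below. Of these 139 (0.816%) were higher and 179 (1.05%) were lower in NM-Brdi, and 53 of the higher and 133 of the lower genes had changed at least 2-fold. In all 318 both NM-Brdi libraries lay on the same side of both NM-DMSO libraries, which was so for 47.6% of the tested genes. Where groups of a called gene are said below not to overlap, this describes the values and adds no support to the call.

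Depth was alike across the 4 libraries, with totals of 24555028 and 23688093 for NM-Brdi and of 20980664 and 21636493 for NM-DMSO. The NM-DMSO libraries were at least 2-fold apart in 2079 genes (12.2%), and the NM-Brdi libraries in 388 (2.28%). Taken alone, NM-DMSO replicate 1 gave 9577 called genes (54.3% of 17633 tested) and replicate 2 gave 2491 (14.2% of 17585). Genes called in the same direction against each library numbered 1689 (9.91%), 828 higher (4.86%) and 861 lower (5.05%), and another 245 were called in opposite directions. All 318 genes were among the 1689. A fit against 1 NM-DMSO library has no spread from that group and takes it from the other groups. Such a fit reuses the NM-Brdi libraries and called more genes than the main fit, so its calls are no separate support. A fit of the 4 libraries alone with edgeR called 0 genes (1419 had an unadjusted p under 0.05), so every call below borrows its spread in part from Brd and control. DESeq2 on the 8 libraries called 316 of the 318, and limma-voom with library quality weights called 116. Genes called by edgeR, DESeq2 and limma-voom numbered 115, with 29 higher and 86 lower. Of the higher genes below, limma-voom did not call Draxin, Met, Bdnf, Alcam or Mcam, among others. Leaving out 1 library of another group left 59 called genes without either Brd library, 40 without either control library, and 8 and 70 without NM-Brdi replicate 1 or 2.

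**Figure D1:**
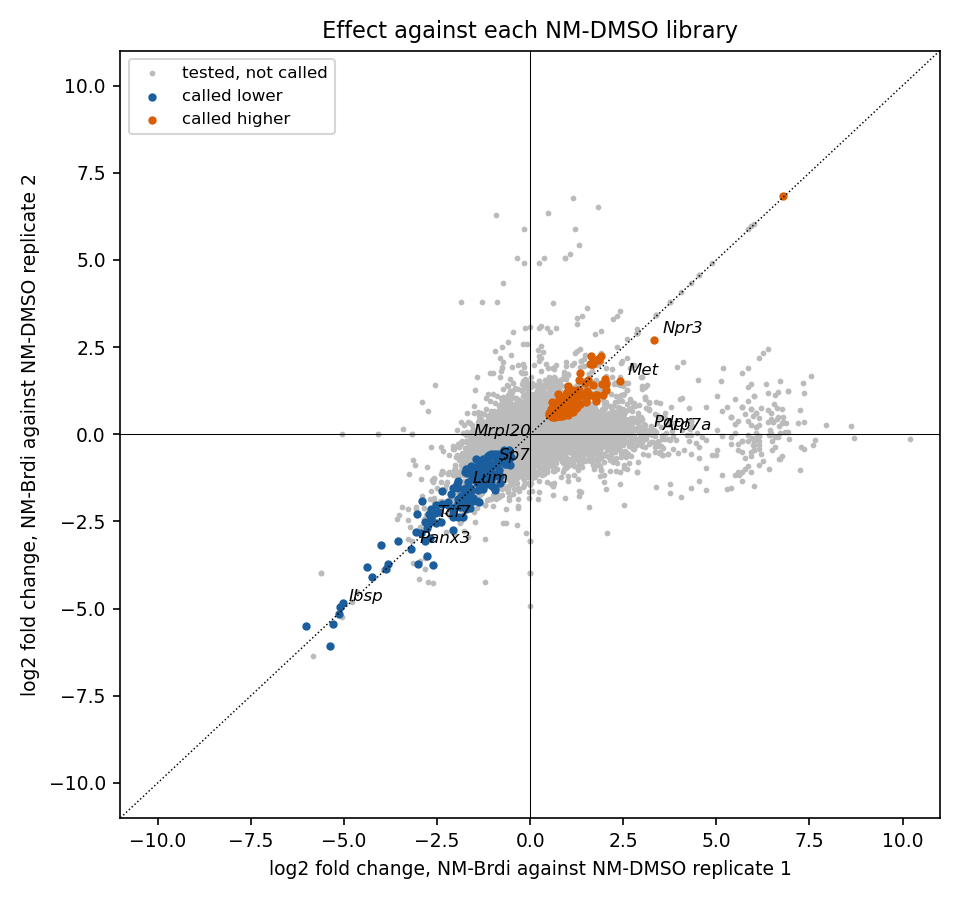
Each point is 1 tested gene, with the log2 fold change of NM-Brdi against NM-DMSO replicate 1 on the horizontal axis and against replicate 2 on the vertical axis; blue and orange mark the genes called lower and higher against both libraries together. The 179 blue and 139 orange genes lie along the dotted line of equal change, while grey genes such as Atp7a and Pdpr extend far along the horizontal axis and stay near 0 on the vertical one.

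Ibsp, which encodes the bone sialoprotein that binds hydroxyapatite, had the widest gap between the groups among the lower genes named by rule. It stood at 2.49 and 6.63 CPM in NM-Brdi replicates 1 and 2 and at 155 and 142 CPM in NM-DMSO replicates 1 and 2 (chromosome 5, 104299171 to 104311469, GRCm38). Both NM-Brdi libraries were far below both NM-DMSO libraries. The log2 fold change was -5.03 ± 0.39 (SE; adjusted p = 0.00453, edgeR), a 32.6-fold lower level, and it was -5.09 against replicate 1 and -4.97 against replicate 2. Ibsp stayed called in each of the 8 fits that left out 1 library.

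The bone matrix and mineralisation list had 30 tested members, of which 12 fell (40%, against 1.05% of all tested genes called lower). The 12 include Sp7, a transcription factor gene that is also on the list of osteoblast transcription factors below. The median log2 fold change of the bone matrix list was -0.77, against -0.0039 over all tested genes. It was -0.85 against replicate 1 and -0.63 against replicate 2. The 12 calls became 1 without NM-Brdi replicate 1, 3 to 7 without NM-Brdi replicate 2 or a library of Brd or control, and 20 and 22 without NM-DMSO replicate 1 or 2. Alpl, the tissue-nonspecific alkaline phosphatase, had 2.83 and 4.17 CPM in NM-Brdi and 24.6 and 19.96 CPM in NM-DMSO and was 6.35-fold lower (adjusted p = 0.00453, edgeR). Smpd3, a neutral sphingomyelinase needed for bone mineralisation in mice, had 20.1 and 24.8 CPM in NM-Brdi and 68.6 and 98.4 CPM in NM-DMSO and was 3.72-fold lower (adjusted p = 0.00763, edgeR). The groups did not overlap for either gene, and the lower of the NM-DMSO values came from replicate 2 for Alpl and from replicate 1 for Smpd3. Smpd3 shares exon bases with Prmt7, and the strand setting of the counting is not given in the sources used here.

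Spp1, which encodes osteopontin, was at 166 and 191 CPM in NM-Brdi and 332 and 266 CPM in NM-DMSO (log2 fold change -0.74 ± 0.13, SE; adjusted p = 0.0418, edgeR). Bglap, osteocalcin, stood at 1.65 and 2.50 CPM in NM-Brdi and 8.73 and 6.01 CPM in NM-DMSO (log2 fold change -1.83 ± 0.29, SE; adjusted p = 0.0289, edgeR). Both fell, and for both NM-DMSO replicate 1 was the highest of the 4 libraries. Bglap shares 439 nt with Bglap3, so its reads could be split between near-identical copies. Ank, the pyrophosphate transporter, fell as well, from 89.03 and 96.2 CPM in NM-DMSO to 55.1 and 64.9 CPM in NM-Brdi; it, like Ogn, Dcn, Postn, Tnn, Fzd9, Fzd4, Id4, Flt1, Vdr, Mmp9, Tmem119 and 2610300M13Rik below, was chosen for naming after its values were seen. Col1a1, the main collagen chain of bone, had 2340.4 and 2479 CPM in NM-Brdi and 3594 and 3204 CPM in NM-DMSO, a log2 fold change of -0.50 that did not pass the test (adjusted p = 0.0701, edgeR). Of 24 collagen-processing genes edgeR called 0 (11 had an unadjusted p under 0.05, as had 3684 of all 17038 tested genes), while DESeq2 called 4 and limma-voom 0. The lowest p-values in that list were those of Pcolce, an enhancer of procollagen cleavage (log2 fold change -0.64), and Loxl1, a collagen and elastin cross-linking enzyme (0.75).

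**Figure D2:**
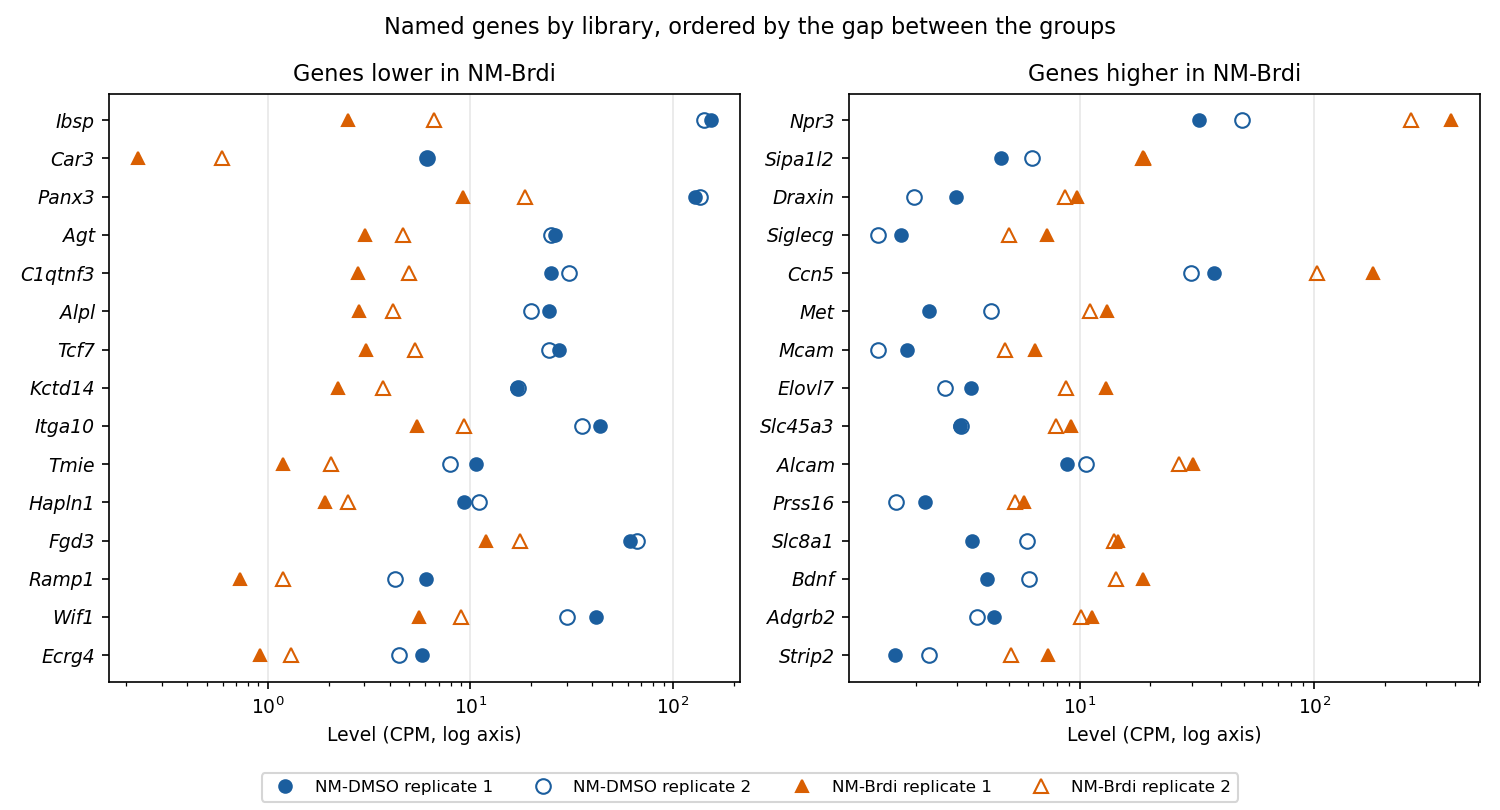
Levels in CPM on a log axis for the 15 lower and 15 higher called genes with the widest gap between the groups and a mean of at least 5 CPM in the higher group, with 1 symbol per library (circles NM-DMSO, triangles NM-Brdi; filled replicate 1, open replicate 2). The genes were chosen by this gap, so triangles and circles do not overlap in any of them. The widest gap among the lower genes is that of Ibsp (2.49 and 6.63 against 155 and 142 CPM). Among the higher genes it is that of Npr3 (384 and 258 against 32.1 and 49.1 CPM).

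Of 19 osteoblast transcription factors, 4 fell (21.1%, against 1.05% of all tested genes called lower). Sp7 (chromosome 15, 102356606 to 102367182) was at 122 and 162 CPM in NM-Brdi and 295 and 271 CPM in NM-DMSO, with both NM-Brdi values under both NM-DMSO values. It was 1.99-fold lower (log2 fold change -0.99 ± 0.14, SE; adjusted p = 0.0231, edgeR), with -1.05 against replicate 1 and -0.93 against replicate 2. Runx2 (chromosome 17, 44495987 to 44814797) had 204 and 250.2 CPM in NM-Brdi and 349 and 409 CPM in NM-DMSO and was 1.67-fold lower (adjusted p = 0.041, edgeR). Dlx3, a homeodomain factor of osteoblasts and ectodermal organs, fell from 2.78 and 3.79 to 0.728 and 0.715 CPM (adjusted p = 0.0239, edgeR). Tcf7, which encodes the Wnt effector TCF1, fell most of the 4, from 27.6 and 24.5 CPM in NM-DMSO to 3.06 and 5.36 CPM in NM-Brdi, or 6.19-fold (adjusted p = 0.00828, edgeR). The median log2 fold change of the 19 factors was -0.19. The calls on Runx2, Spp1, Bglap and Dlx3 were lost in every fit that left out a library of Brd, control or NM-Brdi. That on Sp7 was lost in most of these fits. Its log2 fold change ran from -1.21 to -0.80 over all fits without 1 library.

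RUNX factors bind the letters TGTGGT. Promoter windows of 4 osteoblast genes that fell are shown with this motif in capitals on either strand, to set Ibsp, with the largest fold change of the 4, beside RUNX-bearing promoters. Each window runs from 250 bases before to 50 bases after the annotated start, 5′ to 3′ on the gene's strand, in RefSeq's GRCm38.p6. They are Ibsp (chr5:104299037-104299336, plus strand), Spp1 (chr5:104434861-104435160, plus strand), Bglap (chr3:88384417-88384716, minus strand) and Mmp13, the collagenase-3 described below (chr9:7272264-7272563, plus strand).
Ibsp: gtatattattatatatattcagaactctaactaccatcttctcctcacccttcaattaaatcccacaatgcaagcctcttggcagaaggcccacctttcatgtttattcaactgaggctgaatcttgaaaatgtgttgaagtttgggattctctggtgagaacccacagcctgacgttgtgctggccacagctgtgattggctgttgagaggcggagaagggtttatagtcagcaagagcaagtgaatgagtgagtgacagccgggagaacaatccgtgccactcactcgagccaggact
Spp1: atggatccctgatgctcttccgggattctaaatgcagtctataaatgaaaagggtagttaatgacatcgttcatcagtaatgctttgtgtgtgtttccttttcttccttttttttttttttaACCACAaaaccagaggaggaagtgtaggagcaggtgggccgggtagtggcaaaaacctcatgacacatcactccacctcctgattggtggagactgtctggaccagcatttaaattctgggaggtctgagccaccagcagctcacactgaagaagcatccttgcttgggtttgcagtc
Bglap: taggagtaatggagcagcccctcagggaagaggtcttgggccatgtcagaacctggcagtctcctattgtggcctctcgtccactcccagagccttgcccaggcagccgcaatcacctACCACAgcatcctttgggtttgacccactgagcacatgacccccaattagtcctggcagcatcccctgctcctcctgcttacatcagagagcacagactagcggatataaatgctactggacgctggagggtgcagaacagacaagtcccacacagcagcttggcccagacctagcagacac
Mmp13: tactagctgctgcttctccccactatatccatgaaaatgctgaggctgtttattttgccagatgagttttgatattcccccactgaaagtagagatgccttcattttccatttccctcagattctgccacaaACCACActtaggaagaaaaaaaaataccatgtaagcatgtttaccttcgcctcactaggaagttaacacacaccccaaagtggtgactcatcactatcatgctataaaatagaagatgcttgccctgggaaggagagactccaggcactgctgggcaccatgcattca
Spp1, Bglap and Mmp13 each hold 1 match and Ibsp holds 0 in its window. The motif stood in 14% of the windows of genes called lower (18 of 129 with a window), in 7.55% of those called higher (8 of 106), in 12.1% of those of all tested genes and in 16.9% of all windows. The Mmp13 window also holds 1 match to the AP-1 motif, which is spelled TGACTCA.
The 6 other motifs were searched on both strands in the same windows. A GC box, spelled GGGCGG, stood in 45% of the windows of genes called lower, 73.6% of those called higher and 64% of those of tested genes. For the TEAD motif, the letters CATTCC, the shares in the same order were 17.8%, 13.2% and 11.9%, and for the AP-1 motif they were 6.2%, 5.66% and 3.46%. The TCF/LEF motif was searched as CTTTGAT and gave shares of 1.55%, 0.943% and 2.5%.
A homeodomain motif, searched as the letters TAATTA, gave shares of 3.88% among genes called lower, 4.72% among those called higher and 2.57% among those tested. The cyclic AMP response element, TGACGTCA, gave 2.33%, 3.77% and 3.26% in that order. A match is a string of letters in a window and no more than that.

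Matricellular proteins and proteoglycans were called mostly in the lower direction. Of 24 tested members of that list, 8 fell and 2 rose (41.7% called, against 1.87% of all tested genes). Positive log2 fold changes were seen in 9, and the median was -0.32. Lum, lumican, was at 169.9 and 227 CPM in NM-Brdi and 674 and 594 CPM in NM-DMSO, 3.20-fold lower (adjusted p = 0.00945, edgeR). Aspn, asporin, fell from 1043 and 916 to 402 and 491 CPM (adjusted p = 0.00945, edgeR). In both genes the NM-Brdi libraries were well under the NM-DMSO libraries, and replicate 1 of NM-DMSO was the higher.

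Omd, osteomodulin, fell from 131 and 135 CPM in NM-DMSO to 34.8 and 52.7 CPM in NM-Brdi, and Ogn, osteoglycin, from 915 and 874 to 437 and 571 CPM. Dcn, decorin, fell from 225 and 156 to 48.3 and 67.5 CPM. The other members that fell were Postn, periostin (-0.80 on the log2 scale), Tnn, tenascin-W (-1.68), and Hapln1, a link protein of hyaluronan and proteoglycans (-2.21). The 2 members that rose were Ccn5, a CCN family growth regulator, from 37.6 and 29.7 to 178 and 102 CPM (4.17-fold higher, adjusted p = 0.0124, edgeR), and Ccn1, from 209 and 187 to 352 and 294 CPM (1.63-fold higher, adjusted p = 0.0345, edgeR). The NM-Brdi libraries of Ccn5 were far from each other, yet both lay above both NM-DMSO libraries. Lum, Omd, Ogn, Dcn and Postn also belong to the bone matrix list.

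Among 23 matrix proteases and their inhibitors, 3 fell and 2 rose (21.7% called, against 1.87% of all tested genes). Mmp13, collagenase-3, was at 17.9 and 28.2 CPM in NM-Brdi and 100.3 and 76.3 CPM in NM-DMSO, 3.83-fold lower (adjusted p = 0.0106, edgeR). Mmp9, gelatinase B, fell from 5.86 and 7.17 to 1.19 and 2.38 CPM, and Plau, the urokinase, fell from 22.1 and 17.1 to 7.89 and 9.77 CPM. Adamts9, an aggrecanase and versicanase, rose from 57.3 and 64.9 to 141 and 128 CPM (2.20-fold, adjusted p = 0.00763, edgeR), and Adamts5, another aggrecanase, rose from 78.96 and 76.9 to 169.6 and 138 CPM (1.97-fold, adjusted p = 0.0124, edgeR). Adamts5, whose longest transcript is 10791 nt, was not called once a transcript length trend was removed (adjusted p = 0.101, edgeR).

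The factors by which osteoblasts talk to osteoclasts moved in both directions, with 2 of 5 tested members lower and 1 higher. That is 60% called, against 1.87% of all tested genes. Tnfrsf11b, which encodes osteoprotegerin, the decoy receptor for RANKL, was at 34.2 and 42.2 CPM in NM-Brdi and 120.0 and 109 CPM in NM-DMSO, 2.99-fold lower (log2 fold change -1.58 ± 0.13, SE; adjusted p = 0.00453, edgeR). Sema3a, a semaphorin that protects bone in mice, fell from 203 and 214 to 107 and 138 CPM (adjusted p = 0.0345, edgeR). Csf1, M-CSF, rose from 212 and 273 to 429 and 375 CPM (adjusted p = 0.0462, edgeR). Groups did not overlap in any of the 3, and NM-DMSO replicate 1 was the lower for Sema3a and Csf1. The log2 fold change of Tnfrsf11b was -1.65 against replicate 1 and -1.50 against replicate 2.

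Of 10 endocrine receptors, natriuretic peptides and related genes, 3 fell and 2 rose (50% called, against 1.87% of all tested genes). Npr3 (chromosome 15, 11839896 to 11907287), the clearance receptor that removes natriuretic peptides, was at 384 and 258 CPM in NM-Brdi and 32.1 and 49.1 CPM in NM-DMSO. Both NM-Brdi libraries stood above both NM-DMSO libraries, and replicate 1 was the highest library of NM-Brdi and the lowest of NM-DMSO. The level was 7.89-fold higher (log2 fold change 2.98 ± 0.25, SE; adjusted p = 0.00496, edgeR), with 3.32 against replicate 1 and 2.71 against replicate 2, and Npr3 was called in each of the 8 fits without 1 library. Vdr, the vitamin D receptor, rose from 34.7 and 48.3 to 96.9 and 70.2 CPM (adjusted p = 0.049, edgeR). Pth1r, the parathyroid hormone receptor of osteoblasts, fell from 207 and 124 to 33.8 and 46.9 CPM (4.10-fold, adjusted p = 0.0124, edgeR), and NM-DMSO replicate 1 was much the higher. Agt, angiotensinogen, fell from 26.1 and 25.03 to 3.03 and 4.69 CPM (6.63-fold, adjusted p = 0.00453, edgeR), and Ramp1, a subunit of the CGRP receptor, from 6.05 and 4.28 to 0.728 and 1.19 CPM. Neither gene overlapped between the groups.

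Wnt genes also moved in both directions. Of 27 ligands and receptors, 3 fell and 3 rose (22.2% called, against 1.87% of all tested genes). The median log2 fold change of the 27 was 0.23, with 0.55 against replicate 1 and 0.11 against replicate 2. Wnt10b, a ligand that promotes bone formation in mice, fell from 97.6 and 94.9 to 30.9 and 41.5 CPM (adjusted p = 0.00763, edgeR), Wnt10a from 36.6 and 29.4 to 15.6 and 15.9 CPM (adjusted p = 0.0174, edgeR), and the receptor Fzd9 from 16.6 and 13.01 to 5.25 and 7.15 CPM. The R-spondin receptor Lgr4 rose from 70.6 and 82.3 to 144 and 132 CPM (adjusted p = 0.0154, edgeR) and the R-spondin Rspo2 from 9.28 and 9.89 to 22.7 and 19.5 CPM (adjusted p = 0.0198, edgeR). Fzd4, a Frizzled receptor, was called higher, at 19.5 and 18.1 CPM in NM-Brdi and 5.51 and 9.80 CPM in NM-DMSO (adjusted p = 0.0466, edgeR).

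Secreted Wnt antagonists made up a list of 8 tested genes with 3 called higher and 1 lower (50% called, against 1.87% of all tested genes). Wif1, Wnt inhibitory factor 1, fell from 41.9 and 30.1 to 5.59 and 9.05 CPM (4.92-fold, adjusted p = 0.00828, edgeR). Dkk3 rose from 345 and 389.8 to 805 and 657 CPM (1.99-fold, adjusted p = 0.0154, edgeR), Sfrp2 from 164 and 178 to 277 and 260.0 CPM (1.57-fold, adjusted p = 0.0245, edgeR) and Draxin, which also guides axons, from 2.98 and 1.96 to 9.69 and 8.70 CPM (3.74-fold, adjusted p = 0.00828, edgeR). Groups did not overlap in any of the 4 genes. Wif1 differed most, and the lower of the NM-DMSO values came from replicate 2.

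Of 18 intracellular Wnt genes and β-catenin targets, 4 fell (22.2%, against 1.05% of all tested genes called lower). Besides Tcf7 these were Myc, the growth-promoting transcription factor, from 206 and 175 to 68.7 and 87.8 CPM (adjusted p = 0.0124, edgeR), Tnfrsf19, a TNF receptor of the TROY type, from 422 and 477 to 181 and 249.5 CPM, and Nkd2, a Naked cuticle Wnt inhibitor. Nkd2 had 0 and 2 counts in NM-Brdi against 32 and 36 in NM-DMSO, a ratio of summed levels of 0.0244 with a 95% counting interval of 0.0029 to 0.0917 (exact binomial, counting error only). Ctnnb1, β-catenin itself, had 363 and 375 CPM in NM-Brdi and 340.5 and 389 CPM in NM-DMSO (log2 fold change 0.02), and Axin2, a feedback inhibitor and β-catenin target, had 19.95 and 25.3 and 26.7 and 32.2 CPM (-0.38). Neither passed the test (adjusted p = 0.93 and 0.208, edgeR).

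BMP genes were called in both directions. Of 21 BMP genes, 3 rose and 2 fell (23.8% called), and of 20 TGF-β genes and targets, 2 rose (10%), against 1.87% of all tested genes called. DESeq2 called 6 higher and 2 lower in the BMP list and 5 higher in the TGF-β list, and limma-voom 0 in both. Median log2 fold changes against NM-DMSO replicates 1 and 2 were 0.20 and 0.18 for the BMP list and 0.31 and 0.05 for the TGF-β list. The fitted medians, 0.18 and 0.11, were 0.17 and 0.053 with the length trend described below removed. Smad9, a BMP receptor-regulated SMAD, rose from 20.1 and 22.9 to 41.1 and 38.4 CPM (adjusted p = 0.0163, edgeR), Smad7, the inhibitory SMAD of both pathways, from 21.7 and 22.05 to 41.2 and 33.7 CPM (adjusted p = 0.0367, edgeR), and Id4, a BMP target, from 35.5 and 33.5 to 53.6 and 47.6 CPM. Smoc2, a BMP antagonist, fell from 5.26 and 4.68 to 0.996 and 1.27 CPM.

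Of 17 tested YAP/TAZ targets 4 rose (23.5%, against 0.816% of all tested genes called higher). Of the 17, 16 had positive log2 fold changes, with a median of 0.47. These are long genes, with a median longest transcript of 4427 nt, and with the length trend described below removed the median was 0.29 and 5 were called higher. Of all 17038 tested genes 8425 were positive. Against NM-DMSO replicate 1 the median was 0.62 and against replicate 2 it was 0.28. Amotl2, an angiomotin, rose from 186 and 207 to 376 and 331 CPM (1.80-fold, adjusted p = 0.0146, edgeR), and Axl, a receptor kinase, from 81.98 and 91.8 to 157 and 129 CPM. Ajuba, a LIM protein of the Hippo pathway, rose from 49.03 and 49.4 to 78.6 and 67.7 CPM. Ccn1 was given above, and Ccn2 did not pass the test. Only Amotl2 was also called with limma-voom weights.

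The FGF, Notch, osteocyte and IGF lists gave 1 call each, of 15, 9, 7 and 11 tested genes. Those shares were 6.67%, 11.1%, 14.3% and 9.09%, against 1.87% of all tested genes, and each rests on 1 gene. Fgf7, keratinocyte growth factor, rose from 73.6 and 81.8 to 179.6 and 160.4 CPM (2.19-fold, adjusted p = 0.00763, edgeR), the Notch ligand Jag1 from 26.2 and 23.5 to 63.4 and 49.8 CPM (2.28-fold, adjusted p = 0.0119, edgeR), and the gap junction gene Gja1 of osteocytes from 199.6 and 232 to 340.1 and 330.1 CPM. Of 20 receptor tyrosine kinases and growth factors, 3 rose and 2 fell (25% called). Met, the HGF receptor, rose from 2.28 and 4.19 to 13.1 and 11.04 CPM (3.70-fold, adjusted p = 0.0192, edgeR), Bdnf from 4.02 and 6.06 to 18.6 and 14.2 CPM (3.25-fold) and Flt1, a VEGF receptor, from 73.2 and 81.2 to 125 and 109.9 CPM. Pdgfa fell from 167 and 115 to 59.7 and 59.001 CPM (2.38-fold, adjusted p = 0.0181, edgeR) and Pdgfc from 121 and 123 to 70.9 and 84.5 CPM. In each of Met, Bdnf, Pdgfa and Pdgfc the groups did not overlap, and NM-DMSO replicate 1 was the one farther from NM-Brdi except for Pdgfc. H19, an imprinted noncoding RNA of the IGF2 locus, had 0 and 4 counts in NM-Brdi and 32 in each NM-DMSO library, a ratio of 0.0519 (exact 95% interval 0.0137 to 0.14).

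Cell surface genes rose and fell too. Alcam, an adhesion molecule of the immunoglobulin family, rose from 8.78 and 10.6 to 30.4 and 26.4 CPM (2.93-fold, adjusted p = 0.0116, edgeR) and Mcam, CD146, from 1.84 and 1.38 to 6.43 and 4.80 CPM (3.50-fold, adjusted p = 0.036, edgeR). These were the calls among 7 tested cadherins and adhesion molecules (28.6%, against 0.816% of all tested genes called higher). Of 15 integrins, 6.67% were called, against 1.87% of all tested genes. Itga10, a collagen receptor of cartilage and bone, was the call, at 5.48 and 9.37 CPM in NM-Brdi and 43.6 and 35.6 CPM in NM-DMSO (5.34-fold lower, adjusted p = 0.00763, edgeR). Of 29 semaphorins, ephrins and guidance receptors, 13.8% were called. Sema3a, Sema6a (from 23.1 and 22.7 to 5.67 and 8.10 CPM) and Nrp2 (from 731 and 1119 to 306 and 461 CPM) fell, and Epha4 rose (from 24.1 and 30.7 to 51.7 and 54.1 CPM). Nrp2 encodes a semaphorin and VEGF co-receptor.

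The remaining lower genes with the widest gaps came from several functions. Panx3 (chromosome 9, 37659902 to 37669235), a pannexin channel of osteoblasts and chondrocytes, was at 9.23 and 18.7 CPM in NM-Brdi and 128 and 137 CPM in NM-DMSO, 9.47-fold lower (adjusted p = 0.00704, edgeR). C1qtnf3, a secreted C1q and TNF related protein, fell from 25.01 and 30.6 to 2.80 and 4.96 CPM, and Car3, a carbonic anhydrase, from 6.10 and 6.10 to 0.230 and 0.596 CPM. Fgd3, a guanine nucleotide exchange factor, fell from 61.8 and 66.7 to 11.9 and 17.7 CPM (adjusted p = 0.00534, edgeR). Tmem119, a membrane protein needed for normal bone formation in mice, fell from 282 and 282 to 68.4 and 92.2 CPM (adjusted p = 0.00453, edgeR), and the lincRNA 2610300M13Rik from 82.3 and 76.9 to 5.06 and 6.59 CPM. Kctd14 was 5.76-fold, Tmie 5.71-fold and Ecrg4 4.56-fold lower, and Tmie shares exon bases with Als2cl.

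Among the higher genes with the widest gaps, Sipa1l2, a GTPase activator of the SIPA1 family, rose from 4.62 and 6.28 to 18.8 and 18.5 CPM (3.42-fold, adjusted p = 0.00763, edgeR). Slc8a1, the sodium and calcium exchanger, rose from 3.47 and 5.97 to 14.5 and 14.02 CPM, and Slc45a3, a solute carrier, from 3.08 and 3.12 to 9.15 and 7.90 CPM. Elovl7, a fatty acid elongase, rose from 3.42 and 2.67 to 12.9 and 8.74 CPM. Prss16, Adgrb2, Strip2 and Siglecg rose 2.89-, 2.68-, 3.16- and 3.93-fold. None of the genes named so far in this paragraph was called with limma-voom weights. Among the fits without 1 library, 240 of the 318 genes were called only in the 2 fits that left out an NM-DMSO library, and 8 genes were called in all 8: Itga10, Ibsp, Tmem119, 2610300M13Rik, Agt, Panx3, Fgd3 and Npr3.

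**Figure D3:**
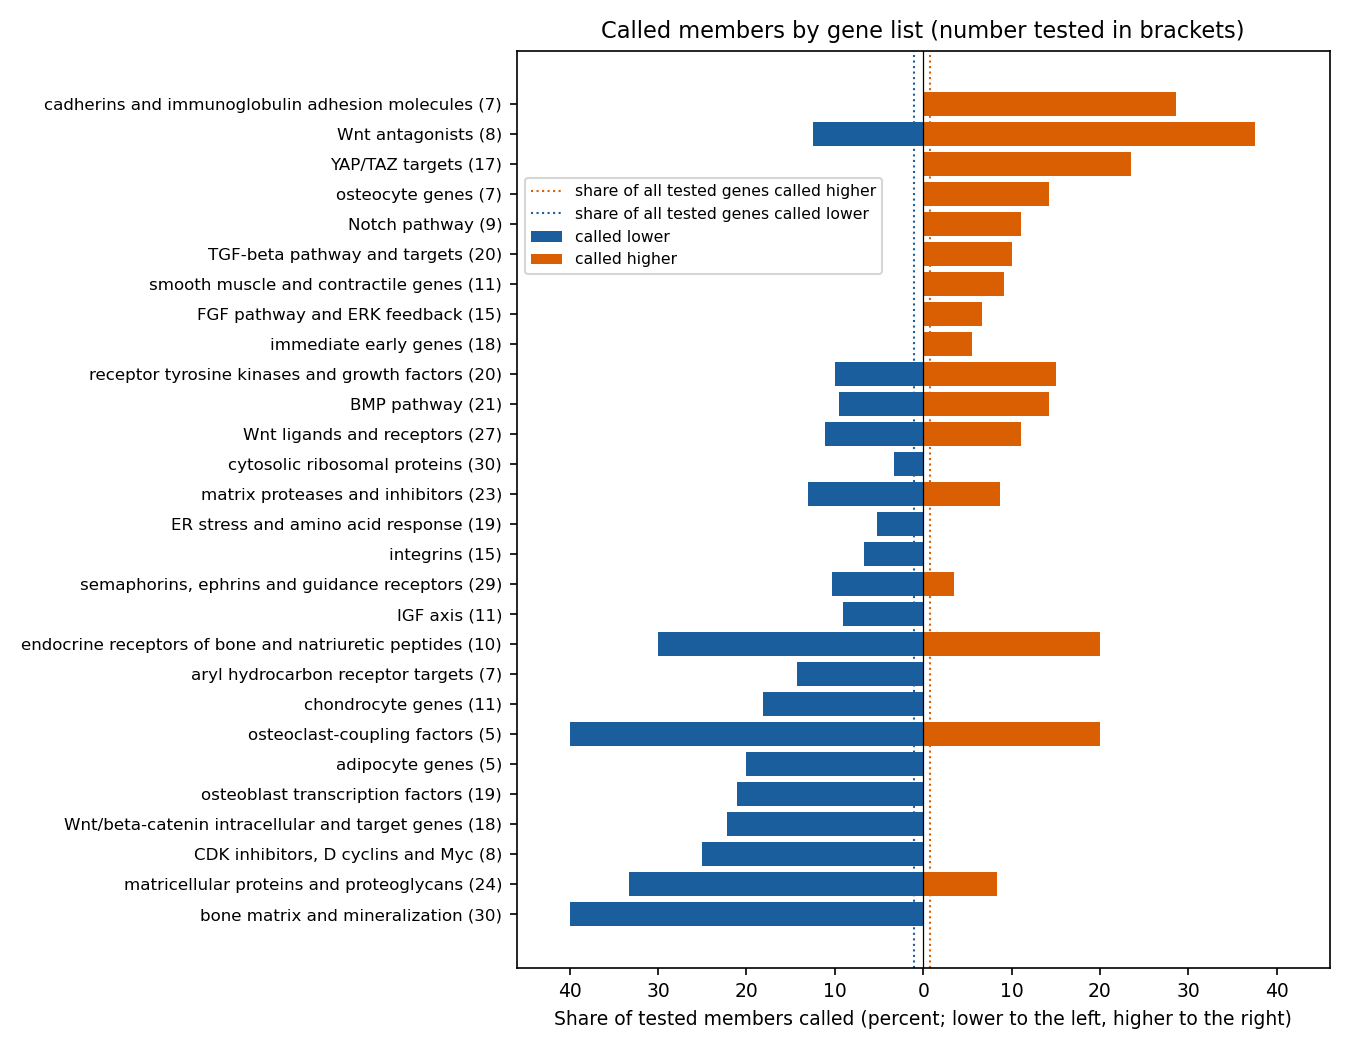
Share of the tested members of each gene list called lower (left, blue) and higher (right, orange) in NM-Brdi, for lists with at least 5 tested members and at least 1 call; dotted lines show the 1.05% and 0.816% of all tested genes. Bone matrix (12 of 30), matricellular (8 of 24) and osteoclast-coupling genes (2 of 5) reach the longest blue bars, and Wnt antagonists (3 of 8) the longest orange bar.

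Neither Brd9 nor the other listed subunits of BAF-type complexes were called. Brd9 (chromosome 13, 73937811 to 73960895) had 29.1 and 28.3 CPM in NM-Brdi and 30.9 and 30.5 CPM in NM-DMSO (log2 fold change -0.10 ± 0.10, SE; adjusted p = 0.591, edgeR). Of 27 subunits of the ncBAF, BAF and PBAF complexes, edgeR, DESeq2 and limma-voom each called 0, and 1 had an unadjusted p under 0.05. The lowest p-values were those of Pbrm1 (log2 fold change 0.34) and Bicral (log2 fold change 0.43). Of 19 genes of BET and other bromodomain proteins the tools also called 0, with 5 at an unadjusted p under 0.05. EdgeR called 1.87% of all tested genes, so 0 calls in lists this small says little. Its unadjusted p was under 0.05 in 3684 of all 17038 tested genes. Nothing in these counts measures the activity of an inhibitor.

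Neither the mitosis list nor the DNA replication list held a called gene. Of 25 mitosis and cell cycle genes edgeR called 0 (7 had an unadjusted p under 0.05), and DESeq2 and limma-voom called 0 as well. The median log2 fold change was 0.16 and 19 of 25 were positive. Of 21 DNA replication genes the 3 tools called 0, with 3 at an unadjusted p under 0.05. As edgeR called 1.87% of all tested genes, 0 calls in lists this small says little. Its unadjusted p was under 0.05 in 3684 of the 17038 genes tested, so the counts at that level are no signal by themselves. Of 8 CDK inhibitors, D cyclins and Myc, 2 fell (25%, against 1.05% of all tested genes called lower). Cdkn1a, the p21 inhibitor, fell from 384 and 359 to 221 and 237 CPM (adjusted p = 0.0174, edgeR), as did Myc. Outside these lists, and chosen for naming after its values were seen, the mitotic checkpoint gene Mad2l1 fell from 512 and 473 to 171 and 206 CPM (adjusted p = 0.00534, edgeR). The mitotic kinase gene Nek2, chosen likewise, rose from 45.7 and 49.4 to 69.2 and 71.98 CPM (adjusted p = 0.0406, edgeR).

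Stress, inflammatory and metabolic lists gave few calls. With 1.87% of all tested genes called, 0 calls in lists this small says little, and a share above it that rests on 1 gene is weak. The unadjusted p was under 0.05 in 3684 of all 17038 tested genes. Of 20 interferon-stimulated genes, 27 cholesterol and fatty acid genes and 15 clock genes, edgeR called 0 in each, with 8, 5 and 7 at an unadjusted p under 0.05, while DESeq2 called 0, 0 and 1 and limma-voom 0 in each. Of 14 chemokines and inflammatory mediators, 15 glucocorticoid targets and 14 NRF2 targets, edgeR called 0 in each, with 5, 4 and 3 at that level. DESeq2 called 1, 1 and 2 of these and limma-voom 0, 0 and 1. Of 20 hypoxia and glycolysis genes edgeR called 0 (8 at that level; DESeq2 1, limma-voom 0), and of 9 hedgehog genes 0 (3 at that level; DESeq2 0, limma-voom 0). Among 18 immediate early genes Egr1 rose from 18.9 and 21.1 to 31.5 and 32.95 CPM (5.56% called). Among 7 aryl hydrocarbon receptor targets Aldh1a3 fell from 20.9 and 26.01 to 5.59 and 8.97 CPM (14.3%). Among 19 ER stress and amino acid response genes Atf5 fell from 164 and 116 to 73.7 and 77.1 CPM (5.26%). DESeq2 called 2 higher, 3 lower and 1 lower in these lists, and limma-voom called 0, 1 lower and 1 lower. The aryl hydrocarbon receptor list had a median log2 fold change of -0.61, with 5 members negative and 2 positive. Atf5 shares exon bases with Nup62.

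Markers of other cell types were summed by library. Endothelial and epithelial markers summed to at most 0.993 CPM in any of the 4 libraries, and none of those lists had a tested gene. Of 14 macrophage and osteoclast markers 6 were tested, with sums of 59.3 and 63.1 CPM in NM-Brdi and 122 and 85.3 CPM in NM-DMSO, and Ptprc, Csf1r and Adgre1 had at most 10 counts in each of the 4. EdgeR called 0 of the 6, with 4 at an unadjusted p under 0.05; DESeq2 called 4 and limma-voom 0, and all 4 were lower. Smooth muscle and contractile genes summed to 2174 and 2137 CPM in NM-Brdi and 3269 and 2428 CPM in NM-DMSO, with Synpo2, an actin-binding protein, called higher (from 19.9996 and 27.6 to 49.7 and 50.8 CPM). That call is 9.09% of the 11 tested, against 1.87% of all tested genes. Of the 11, 7 had negative log2 fold changes, with a median of -0.28. DESeq2 called 3 lower and limma-voom 1. Chondrocyte genes summed to 548 and 596 CPM in NM-Brdi and 820.1 and 757 CPM in NM-DMSO. Panx3 and Hapln1 were the 2 called of 11 (18.2%, against 1.05% of all tested genes called lower). Adipocyte genes summed to 95.7 and 93.7 CPM against 138 and 103 CPM, with Cebpa called lower, and neural markers to 49.8 and 45.5 against 48.8 and 42.3 CPM, with Map2 called higher. The other 2 tested neural markers had negative log2 fold changes (the median of the 3 was -0.29), and Tubb3, at -0.66, was called lower by DESeq2 and against each NM-DMSO library. Skeletal muscle markers summed to 10.2 and 11.2 against 11.2 and 12.7 CPM, and of the 2 tested edgeR called 0 (1 had an unadjusted p under 0.05; DESeq2 called 1, limma-voom 0). A part of these cells in the results was not tested, and fewer cells of a type cannot be told apart from less RNA per cell.

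The difference between the NM-DMSO libraries ran with transcript length. Among 12142 protein-coding genes, sorted by the length of the longest transcript into eighths, replicate 2 minus replicate 1 of NM-DMSO went from a median of -0.56 in the shortest eighth (up to 1617 nt) to 0.47 in the longest (from 6387 nt). NM-Brdi minus NM-DMSO replicate 1 went from -0.56 to 0.48, and NM-Brdi minus replicate 2 stayed between -0.017 and 0.020. Genes called higher had a median longest transcript of 4370 nt, genes called lower 2801 nt, and tested genes 2764 nt. The 149 genes called higher than replicate 1 and lower than replicate 2 had a median of 5162 nt, and the 96 with the opposite calls 1828 nt. Spearman's rank correlation with length across these genes, a description of libraries that share their genes, was 0.576 for the NM-DMSO difference, 0.501 against replicate 1, 0.0028 against replicate 2 and 0.386 for the fitted change.

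**Figure D4:**
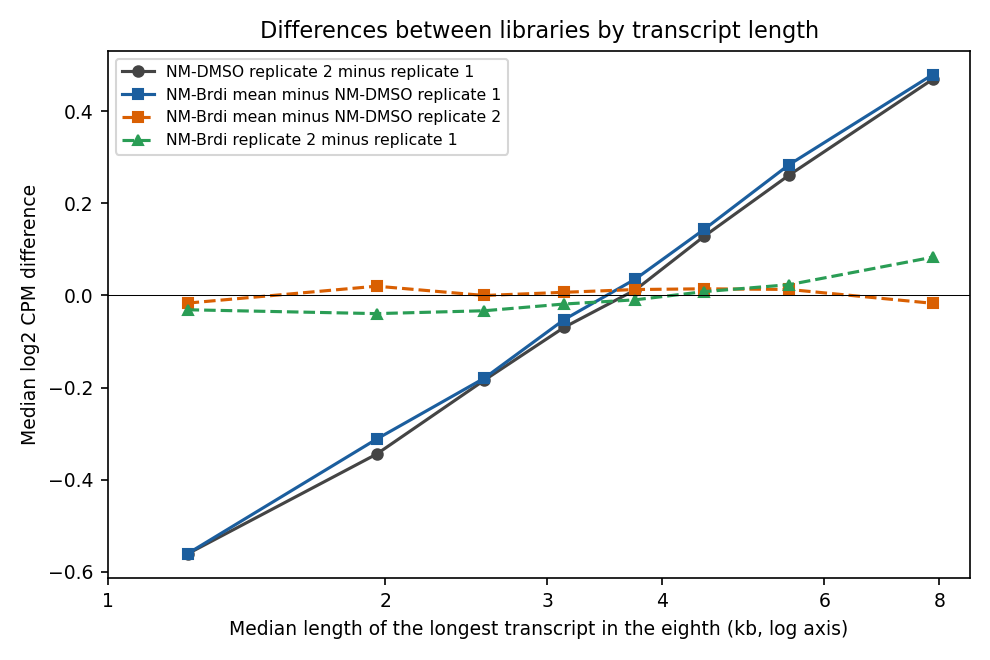
Median log2 CPM difference between libraries in eighths of the protein-coding genes by the length of the longest transcript, with that length in kb on a log axis. The grey line (NM-DMSO replicate 2 minus replicate 1) and the blue line (NM-Brdi minus NM-DMSO replicate 1) rise together from -0.56, to 0.47 and 0.48, while the orange line (NM-Brdi minus NM-DMSO replicate 2) lies near 0.

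Single genes show the extremes of that pair. Mrpl20, a mitochondrial ribosomal protein with a transcript of 810 nt, was at 26.997 and 9.62 CPM in NM-DMSO replicates 1 and 2 and at 7.47 and 8.81 CPM in NM-Brdi, and Ndufa4, Tbca, Uqcr10 and Snrpe were likewise highest in NM-DMSO replicate 1. Atp7a, a copper transporter, was at 2.38 and 25.2 CPM in NM-DMSO and 20.7 and 27.8 CPM in NM-Brdi, and Lrch3, Pdpr, Zc3h11a and Pcdhac2 were also lowest in replicate 1. None of these 10 genes was called by edgeR, DESeq2 or limma-voom at an adjusted p under 0.05. All 30 cytosolic ribosomal proteins, which have short transcripts (median 1140 nt), had negative log2 fold changes with a median of -0.62, which was -0.87 against replicate 1 and -0.22 against replicate 2. Rpl27 was called lower, and pseudogene copies with 12.6 times its counts could share its reads. Of 13 mitochondrially encoded genes edgeR, DESeq2 and limma-voom called 0, with 1 at an unadjusted p under 0.05.

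With the length trend removed from each library, 308 of the 318 genes were still called in the same direction, among 693 in all (284 higher and 409 lower). Of the bone matrix list 13 genes were then called lower. Calls on named genes lost were those of Adamts5 and Flt1. The removal was added after the data were seen and leaves -0.29 between the NM-DMSO libraries in the shortest eighth. What set NM-DMSO replicate 1 apart was not tested. Processed pseudogenes held 22.9% of the counts of NM-DMSO replicate 1, 19.3% of replicate 2 and 18.5% to 18.6% of the NM-Brdi libraries.

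The effects of the NM pair and of the Brd pair were compared by the interaction term of the same fit, coded as NM-Brdi minus NM-DMSO less Brd minus control. Of the 17038 genes 7 were called (0.0411%). Brd against control itself gave 1121 calls (6.58%). Of the 318 genes called in the NM pair, 210 were called in the same direction in Brd against control and 4 in the opposite direction. Both comparisons take their spread from the same fit. The 7 interaction calls fell to 0 in each fit without a library of Brd, control or NM-Brdi (differences of the same sign throughout). Lum fell in both pairs but by less in the NM pair, with 13.5 and 18.8 CPM in Brd and 575 and 556 CPM in control (log2 fold change -5.13 there and -1.68 in the NM pair; difference 3.45 ± 0.27, SE, adjusted p = 0.00793, edgeR). Sfrp2 and Draxin rose in the NM pair and fell in the Brd pair, where they changed by -1.11 and -0.99 (differences 1.76 and 2.89, adjusted p = 0.00793 and 0.0213, edgeR). Cdc42ep3, a CDC42 effector, fell in the NM pair, from 132 and 129 to 49.7 and 54.7 CPM, and stood at 87.7 and 84.3 CPM in Brd and 89.5 and 83.7 CPM in control.

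The other 3 genes were not called in the NM pair. Ccn2, connective tissue growth factor, had 52.2 and 40.4 CPM in NM-Brdi and 44.3 and 42.4 CPM in NM-DMSO but 324 and 261 CPM in Brd and 34.5 and 28.3 CPM in control. Its log2 fold changes were 0.09 in the NM pair and 3.22 in the Brd pair. Ccn3, another CCN protein, and Gas1, a growth-arrest protein that binds hedgehog, changed by 0.18 and 0.15 in the NM pair and by -1.93 and -1.06 in the Brd pair. Mmp13, Smpd3 and Ibsp had log2 fold changes farther from 0 in the NM pair (-1.94, -1.90 and -5.03) than in the Brd pair (-0.03, -0.23 and -1.98), but the difference itself did not pass the test (adjusted p = 0.0844, 0.085 and 0.081, edgeR).

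**Figure D5:**
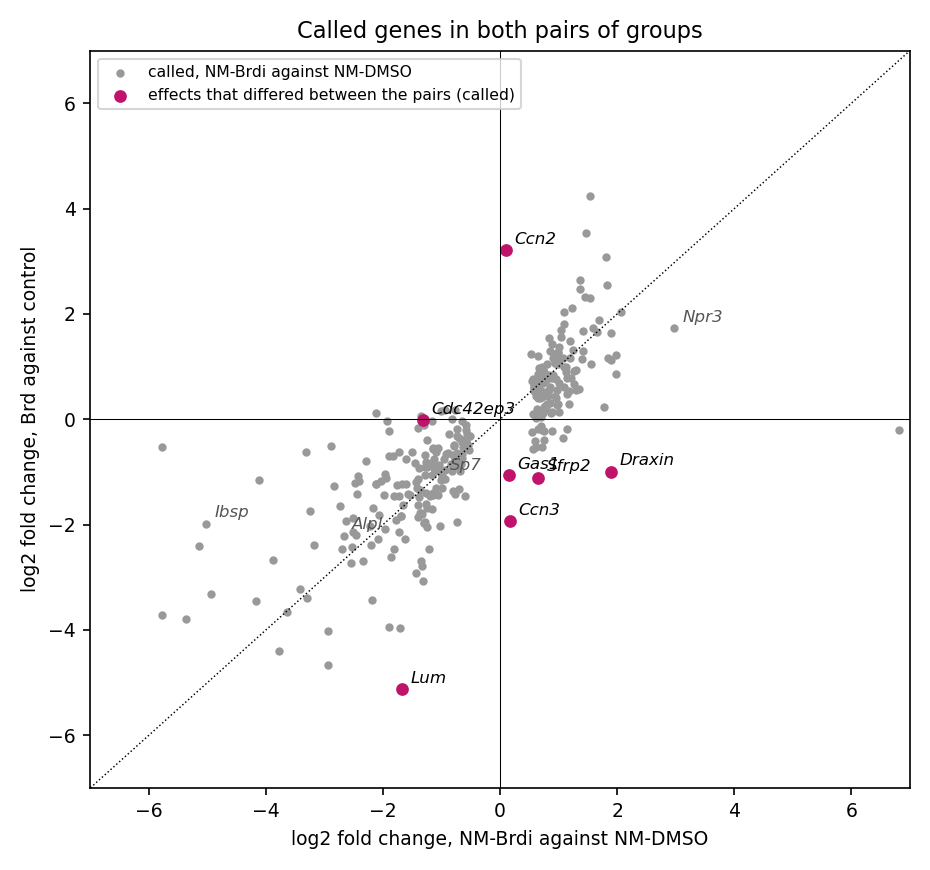
Log2 fold change of NM-Brdi against NM-DMSO (horizontal) and of Brd against control (vertical) for the 318 genes called in the NM pair (grey), with the 7 genes whose effects differed between the pairs in magenta. Lum lies far below the dotted line of equal change, Ccn2 far above it, and Sfrp2 and Draxin to the right of 0 and below it.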

How the data were processed

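The authors deposited raw read counts for 28901 genes in 8 libraries, with no normalisation applied. The submitters' processing notes name featureCounts 2.0.3, STAR 2.7.10a, Trimmomatic 0.39 and FastQC 0.11.9, with the builds GRCm38 and GRCh38. The sources used here do not give the annotation release, the strand setting, the handling of multi-mapping reads or the RNA selection; unstranded, multi-copy or length-dependent counting would change the values of the genes marked as uncertain.

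Groups came from the sample titles. Counts were scaled with TMM factors and filtered with filterByExpr, which left 17038 genes; 1 CPM stood for 16.4 to 26.1 counts in a library. One edgeR 4.0.16 quasi-likelihood fit (R 4.3.3) with 1 term per group took all 8 libraries, and calls used a Benjamini-Hochberg adjusted p under 0.05. Each p-value measures only the spread between libraries, which may be technical. The biological coefficient of variation was 0.148. The code was tested on simulated counts. Alternatives were the 4 NM libraries alone, a replicate block, DESeq2 1.42.0, other scalings and filters, limma 3.58.1 voom weights, leaving out each library and, added after the data were seen, removal of a transcript length trend and protein-coding genes only.

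The comparison, gene lists and named genes were chosen with earlier results of these data known. The naming rule took 10 osteoblast and BRD9 genes whatever their result, the 15 lower and 15 higher called genes with the widest gap between the groups and at least 5 CPM, up to 4 called members of each list (or the 2 with the smallest p), the 10 genes most unequal between the NM-DMSO libraries and all genes called in the interaction. Gene positions and transcript lengths are those of GENCODE M21 on GRCm38 (96.9% of symbols matched), which is not stated to be the authors' annotation. Shared sequence was sought with BLAST 2.17.0 (at least 200 nt at 95% identity); Bglap, Bnip3, Gstm1, Rpl27, Snrpe, Tbca, Zc3h11a, Pcdhac2, mt-Co3 and mt-Nd3 are uncertain for that reason, and Tmie, Smpd3, Atf5, Nr1d1 and Pbrm1 because of overlapping exons. Promoter windows are RefSeq's on GRCm38.p6, of which 96 of the 132 named genes had one. Some genes that met the naming rule are not reported here.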

Additional observations from a re-analysis of the deposited data

Results flagged for a closer look

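The effects of 7 genes differed between the pair of NM groups and the Brd pair by the interaction test (edgeR, 8 libraries). The difference, NM pair minus Brd pair on the log2 scale, was -1.31 for Cdc42ep3, 2.89 for Draxin, 3.45 for Lum, 1.76 for Sfrp2, 2.11 for Ccn3, 1.2 for Gas1 and -3.12 for Ccn2. No group had enough libraries to look for single libraries far from the rest.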

How the results depend on the processing

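Called genes (318 in all, 139 higher and 179 lower) numbered 0 with the 4 NM libraries alone (1419 at an unadjusted p under 0.05), 94 with a replicate block (24 higher, 70 lower), 917 with DESeq2 (391 and 526), 2453 with no filter on low counts (1016 and 1437), 144 with voom weights (35 and 109), 693 after transcript length correction (284 and 409) and 503 among protein-coding genes only (222 and 281). Leaving out 1 library gave 8 to 9577 called genes (1 to 4682 higher, 7 to 4895 lower): 59 without either Brd library, 40 without either control library, 8 and 70 without NM-Brdi replicate 1 or 2, and 2491 and 9577 without NM-DMSO replicate 1 or 2. The share called higher was 43.7%, and 25.5% with the block, 24.3% with voom weights and 12.5% to 49% without 1 library. The interaction, with 7 calls, gave 1 with the block, 300 with DESeq2, 608 with no filter, 154 with voom weights, 179 after length correction, 43 among protein-coding genes only and 0 to 7458 without 1 library. The causes were not tested.

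No label states whether libraries of different groups with the same replicate number were paired. Deviations of replicate 1 correlated at 0.152 between NM-Brdi and NM-DMSO and at 0.0149 between Brd and control, which does not decide it. With the block 89 of the 318 genes were called. None of the 96 called genes named in the text changed sign under these alternatives; 93 to 96 of those tested were called under DESeq2, its size factors, upper-quartile scaling, the other filters and length correction, 51 with voom weights and 42 with the block. Of genes that were not called, Ctnnb1 (-0.069 to 0.12 on the log2 scale without 1 library, -0.015 after length correction), Acta1 (-0.14 to 0.092, and 0.096 after length correction) and Ccn2 (-0.10 to 0.27 without 1 library) changed sign. With 2 libraries a group, depth limits genes near 1 CPM, where 16.4 to 26.1 counts stand behind a value.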

Other observations

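Among the 318 called genes, 27 carry clone-based or predicted names and 11 are annotated as processed pseudogenes. Changes of at least 2-fold against each NM-DMSO library in the same direction were seen in 240 genes that were lower and 146 that were higher in NM-Brdi.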
